A study of Homo sapiens with 3 samples.

Results

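The genes described here are 10 classical targets of the hypoxia response, CA9, CA12, ADM, NDRG1, BNIP3, EGLN3, SLC2A1, PDK1, PFKFB4 and P4HA1, followed across 3 cultures of the human melanoma line 1205Lu. They were chosen by name, and all probes that carry one of these names were used. These were 15 of the 41000 probes on the array, for 10 of its 18841 gene names. The 1205Lu line comes from a lung metastasis that WM793 melanoma cells formed as a xenograft. RNA was taken from an original monolayer (OM) kept for 14 days in standard medium, RPMI-1640 with fetal calf serum (FCS). The second culture was melanoma bodies (MB), adherent 3D bodies that formed during 14 days in hESC medium, DMEM F-12 with Knock Out serum replacement. The third was a new monolayer (NM), in which cells had 14 days as melanoma bodies in hESC medium and then 10 days in RPMI-1640 with FCS, and residual bodies were taken away before RNA was prepared. All cultures were kept at the same temperature and CO2 level. No culture is described as hypoxic, and no oxygen level is given in the sources used here. Each population is 1 culture on 1 array, so 3D growth, medium and the culture itself cannot be told apart, and neither can fewer expressing cells and less RNA per cell.

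Hypoxia inducible factors (HIF) are transcription factors made of an oxygen-regulated alpha subunit, HIF1A or EPAS1, and a stable partner, ARNT. In oxygenated cells, prolyl hydroxylases of the EGLN family mark the alpha subunit, VHL binds the mark, and the subunit is degraded. When oxygen is scarce, or when the hydroxylases are blocked in another way, HIF enters the nucleus and binds DNA at a short core sequence, the hypoxia response element. Its targets shift glucose use from mitochondria to glycolysis, export acid, change mitophagy and matrix, and feed back on HIF itself. In melanoma, as in other tumors, many of these genes are read as a hypoxia signature, although several also answer to growth factors and nutrients. HIF alpha subunits are controlled mainly at the protein level, so array signals of HIF1A or EPAS1 RNA do not measure HIF activity.

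The core of the response element, ACGTG or GCGTG, was searched on both strands of the 250 bases before each gene start, in RefSeq sequences of the GRCh38.p14 build. The window of 9 of the 10 genes was at hand, with 2 starts for PDK1. Either core was found in 7 of these 10 windows, ACGTG in 4 and GCGTG in 4, and BNIP3 had both. Over all 35116 promoters in the same table, either core was found in 43.2%, ACGTG in 18.5% and GCGTG in 32.2%. A match is a string of letters and not a binding site, and elements farther from the start are outside this window. The 5 windows below belong to the 2 carbonic anhydrases, the gene with most matches, and the genes whose signals differed most between cultures. Each is given 5′ to 3′ in the direction of the gene and ends at the base before its start. Capitals mark the cores, which read CACGT or CACGC where they lie on the opposite strand.
CA9 promoter (chr9:35673678-35673927, plus strand): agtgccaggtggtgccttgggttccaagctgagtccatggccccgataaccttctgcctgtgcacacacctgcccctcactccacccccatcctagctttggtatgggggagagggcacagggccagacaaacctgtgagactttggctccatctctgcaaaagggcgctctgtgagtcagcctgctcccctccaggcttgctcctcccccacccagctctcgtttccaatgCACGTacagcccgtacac
CA12 promoter (chr15:63381847-63382096, minus strand): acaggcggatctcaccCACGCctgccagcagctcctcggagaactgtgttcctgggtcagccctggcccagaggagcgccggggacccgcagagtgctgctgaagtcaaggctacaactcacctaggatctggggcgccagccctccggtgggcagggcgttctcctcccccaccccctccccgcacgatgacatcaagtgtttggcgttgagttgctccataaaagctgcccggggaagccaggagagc
BNIP3 promoter (chr10:131981924-131982173, minus strand): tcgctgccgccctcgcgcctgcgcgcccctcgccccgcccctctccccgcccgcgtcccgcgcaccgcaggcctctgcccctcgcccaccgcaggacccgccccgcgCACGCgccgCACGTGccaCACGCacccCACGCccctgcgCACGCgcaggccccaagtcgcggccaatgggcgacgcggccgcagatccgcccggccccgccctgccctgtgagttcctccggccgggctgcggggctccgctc
PDK1 promoter (chr2:172555840-172556089, plus strand): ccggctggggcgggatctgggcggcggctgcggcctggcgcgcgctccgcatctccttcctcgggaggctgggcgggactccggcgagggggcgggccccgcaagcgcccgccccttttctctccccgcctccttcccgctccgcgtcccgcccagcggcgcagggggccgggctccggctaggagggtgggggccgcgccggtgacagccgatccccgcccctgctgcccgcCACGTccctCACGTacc
PFKFB4 promoter (chr3:48556804-48557053, minus strand): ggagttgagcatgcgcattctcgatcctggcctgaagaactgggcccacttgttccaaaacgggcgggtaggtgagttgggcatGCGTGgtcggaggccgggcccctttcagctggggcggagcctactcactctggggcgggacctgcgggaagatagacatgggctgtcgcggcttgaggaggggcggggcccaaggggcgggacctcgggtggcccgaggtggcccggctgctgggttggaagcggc

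In CA9 the first base of the ACGTG match lay 18 bases before the start, and in PDK1 the matches lay 17 and 8 bases before its second start. BNIP3 held 6 matches between 143 and 104 bases before its start. Its palindrome CACGTG accounts for 2 of them, as it reads the same on both strands. GCGTG lay 166 bases before the PFKFB4 start and 234 bases before that of CA12. ADM had 1 match, 101 bases before its start, and P4HA1 had 1 at 86 bases. EGLN3, SLC2A1 and the first start of PDK1 had none in this window.

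Signals below are in arbitrary units (a.u.) of the scanned spot after background subtraction, before scaling, and log2 ratios are after scaling to 3 housekeeping genes (the average of HSP90AA1, ACTB and GAPDH on the same array). This average was 131555 a.u. on OM, and MB and NM had 0.978 and 0.877 of it. GAPDH is itself a HIF target, and results without it are given at the end. With 1 array per population no test was possible. The error at hand is that between spots of the same probe. The SD of a single-spot log2 ratio was 0.074 (MB over OM), 0.072 (MB over NM) and 0.074 (NM over OM) where the dimmer signal was above 100 a.u., and it was 0.371, 0.3 and 0.301 between 20 and 100 a.u. This spread leaves out the variation between cultures. Among lineage markers, SOX10 (6254 a.u. in OM, 9382 in MB, 4887 in NM) and S100B (25155, 43760 and 13307) were bright on every array. MITF gave 423 a.u. in OM, 718 in MB and 551 in NM, and DCT gave 66.7, 62.8 and 64.1. PMEL stayed between 209 and 286 a.u., MLANA between 26.5 and 39.5, and TYR and TYRP1 were not well above background on any array. Of 10 markers of other cell types, PTPRC, CDH5, KRT5 and EPCAM never stood well above background, and 5 to 6 were above it on each. Their summed signal was 40888 a.u. in OM, 42672 in MB and 35727 in NM, most of it KRT10, and 1785, 3289 and 3078 a.u. without that gene. Of these, PDGFRB, a receptor of pericytes and fibroblasts that tumor lines can also carry, gave 1246, 2322 and 2737 a.u., an order it shares with CA12 and P4HA1, and CD3E stayed between 84.8 and 110 a.u. The endothelial gene VWF gave 185 a.u. in OM, 390 in MB and 95.6 in NM, and the keratin KRT14 gave 213, 373 and 118, the MB-high and NM-low order that PFKFB4 has. The lineage markers SOX10 and S100B had this order too, so it is not particular to markers of other cell types. PECAM1, also endothelial, was well above background on MB alone, at 87.7 a.u., at least 4.29-fold over OM. Their part in the results below was not tested.

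PFKFB4 makes and removes fructose-2,6-bisphosphate, the metabolite that switches phosphofructokinase in glycolysis. Its probe (chromosome 3, 48530458 to 48530517, minus strand, in the hg17 build as all probe positions here) gave 1223 a.u. in OM, 4715 in MB and 720 in NM. MB stood well apart from both monolayers. The scaled signal was 3.94-fold higher in MB than in OM (log2 ratio 1.98) and 5.88-fold higher than in NM (2.55), and NM was 1.49-fold lower than OM (-0.58). All 3 differences were larger than the spot error. The 13 spots next to it on the slide, which belong to other genes, had medians of 0.13 (MB over OM, single spots from -0.81 to 0.99) and 0.08 (MB over NM, from -1.19 to 1.81) on the log2 scale. Among the probes that represent a member, PFKFB4 was farthest toward MB in both comparisons, and 201 of 12781 genes (1.57%) had a ratio over OM at least as high.

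PDK1 phosphorylates pyruvate dehydrogenase and so keeps pyruvate carbon out of the citric acid cycle. It showed the opposite order to PFKFB4, lowest in MB and highest in NM. One probe (chromosome 2, 173288780 to 173288839, plus strand) gave 3028 a.u. in OM, 2114 in MB and 5377 in NM, and the other (173286064 to 173286123) gave 407, 275 and 767 a.u. By the first, MB was 2.83-fold lower than NM (log2 ratio -1.50) and 1.4-fold lower than OM (-0.49), while NM was 2.02-fold higher than OM (1.02). The second probe gave -1.63, -0.53 and 1.10 in the same order, so both place the cultures alike. The NM excess over OM lay at the 2-fold line, and it passed that line in 5 of the 11 other settings tried (0.83 to 1.13). The MB deficit to NM passed 2-fold in all 11 (-1.72 to -1.35). These 11 settings, used for the other members too, are not all separate checks. The deposited values equal those used here, and members had no outlier spots to keep, so both nearly repeat the main result. For a gene with a single probe, so does a mean over probes. The 12 spots next to the first probe had median ratios of 0.50 (MB over NM) and 0.38 (MB over OM), opposite in sign to those of PDK1.

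SLC2A1 encodes GLUT1, the basal glucose transporter. Its probe (chromosome 1, 43060967 to 43061026, minus strand) gave 9043 a.u. in OM, 8347 in MB and 8014 in NM, and after scaling the log2 ratio of MB was -0.08 to OM and -0.10 to NM, with 0.01 for NM over OM. These are close to the spot error, and the sign of both ratios with NM changed with the scaling. GLUT1 thus had nearly the same signal in MB and NM, between which PFKFB4 and PDK1 each differed by more than 2-fold.

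**Figure D1:**
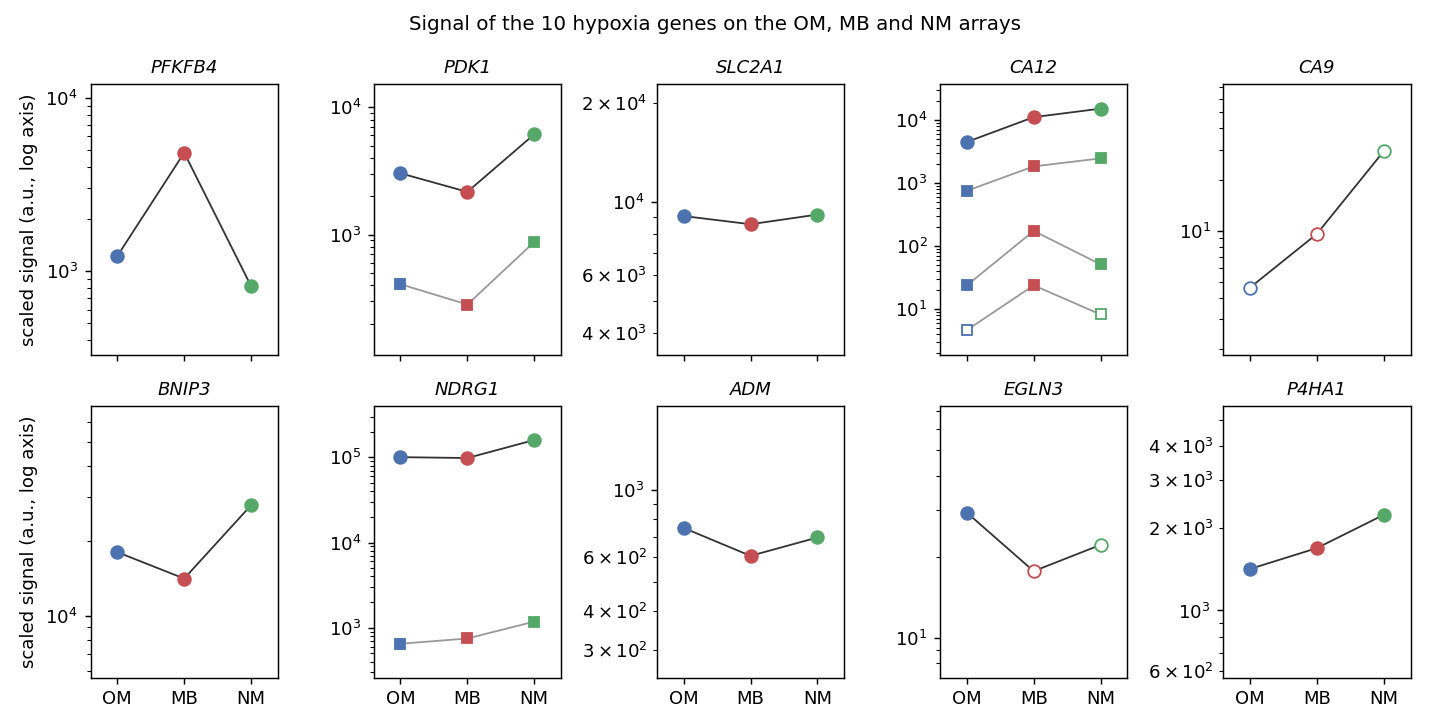
Signal of each of the 10 hypoxia genes on the OM, MB and NM arrays, after scaling to 3 housekeeping genes, in arbitrary units on a log axis of its own in each panel. Circles are the probe that represents the gene, squares its other probes, and open symbols were not well above background. PFKFB4 peaks in MB, PDK1 and BNIP3 are lowest there, and CA9 has open symbols on all 3 arrays and EGLN3 on MB and NM.

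CA12 and CA9 are membrane carbonic anhydrases whose active site faces outward, where they turn CO2 into bicarbonate and protons and help the cell to hold its internal pH. CA12 was higher in both cultures that had been in hESC medium. The probe that represents it (chromosome 15, 61404114 to 61404173, minus strand) gave 4514 a.u. in OM, 10969 in MB and 13432 in NM. Scaled, this was 2.49-fold over OM in MB (log2 ratio 1.31) and 3.39-fold over OM in NM (1.76), and MB was 1.36-fold lower than NM (-0.45). A second probe to the same transcript, 562 bases further along the gene (61403552 to 61403611), gave 756, 1805 and 2176 a.u. and ratios of 1.29, 1.71 and -0.43. The pair differed from each other by less than the spot error in each comparison. CA12 had the highest NM over OM ratio of the members, with 169 of 12662 genes (1.33%) at or above it.

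The array also names as CA12 a pair of probes designed on another cDNA, AK000158, which lie 1953 and 2387 bases along the gene from the first probe. They did not follow the same order. The farther one (61401727 to 61401786) was dim, with 23.6 a.u. in OM, 170 in MB and 44.8 in NM, and was highest in MB, 7.38-fold over OM (log2 ratio 2.88) and 3.4-fold over NM (1.77), with NM 2.17-fold over OM (1.12). The nearer one (61402161 to 61402220) was well above background on MB alone, at 23.2 a.u., which leaves a bound of at least 1.14-fold over OM. Thus all measured CA12 probes were higher in MB than in OM, but whether MB or NM was highest depended on the probe, and a mean over probes turned the MB over NM ratio from -0.45 to 0.30. Which transcripts the dim pair detects was not tested.

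**Figure D2:**
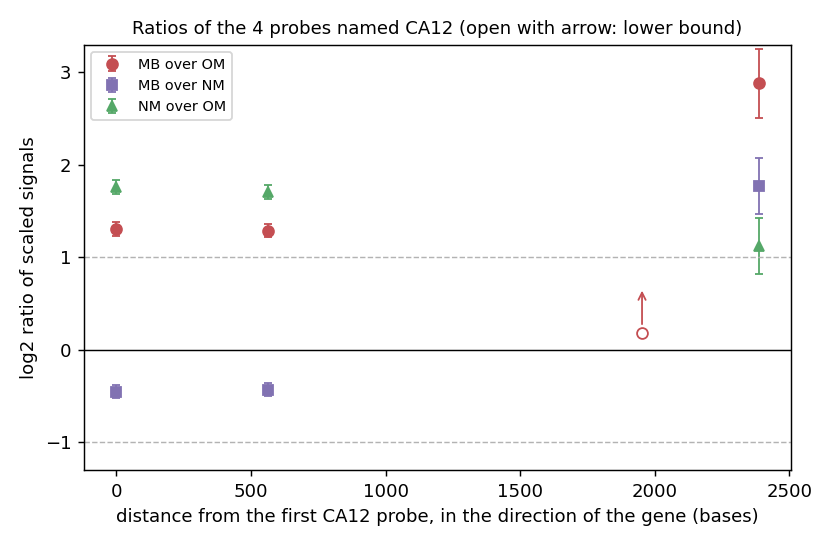
Log2 ratios of the 4 probes named CA12 against their distance, in bases, from the first probe in the direction of the gene. Bars are the SD of a single-spot ratio at that signal level, dashed lines mark 2-fold, and the open circle with an arrow is a lower bound. MB over NM is negative for the first and second probe (-0.45 and -0.43) and positive for the last (1.77).

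CA9, a widely used marker of HIF activity in tumors, gave no usable signal. Its single probe (chromosome 9, 35667817 to 35669204, a span of 1388 bases that the probe bridges) gave 4.62 a.u. in OM, 9.35 in MB and 25.8 in NM, none of them well above background. The lowest signals that counted as well above background were 20.9, 19.4 and 29.1 a.u. on the respective arrays, so no fold is given. The probe is shown, in the sense direction of the gene as on the array, because this negative reading rests on it alone.
CA9 probe: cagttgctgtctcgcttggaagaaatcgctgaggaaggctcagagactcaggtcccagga
No mark is set in capitals. Of 13 other carbonic anhydrase genes, CA8, a relative without enzyme activity, was bright, with 24686 a.u. in OM, 9032 in MB and 40269 in NM. By this probe MB was 2.67-fold below OM and 4.97-fold below NM, and the other CA8 probe gave no ratio in any comparison. CA2, the common cytosolic form, was dim, at 126, 52.7 and 40.9 a.u.

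EGLN3, a prolyl hydroxylase that HIF induces and that marks HIF for degradation, was also at the edge of detection. Its probe (chromosome 14, 33464392 to 33464451) gave 29.3 a.u. in OM, 17.3 in MB and 19.5 in NM, and was well above background on OM alone. MB was at least 1.48-fold lower than OM, a bound that lies in the signal range where single spots vary most. With CA9 and EGLN3 set aside, 8 of the 10 genes had a signal over 100 a.u. and enter the counts and medians that follow.

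BNIP3 is a mitochondrial outer membrane protein that recruits the autophagy machinery. The probe (chromosome 10, 133631301 to 133631360, minus strand) gave 17983 a.u. in OM, 13767 in MB and 24343 in NM. As with PDK1, MB was the lowest and NM the highest. On the log2 scale MB lay at -0.35 relative to OM and at -0.98 relative to NM, a 1.97-fold difference, and NM lay at 0.63 relative to OM. Its deficit in MB against NM passed 2-fold in 4 of 11 other settings (-1.20 to -0.82). The spots next to it had median ratios of 0.31 (MB over OM), -0.13 (MB over NM) and 0.28 (NM over OM), the last 2 of the same sign as BNIP3.

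NDRG1, a stress-responsive protein linked to differentiation and to restraint of metastasis, was higher in NM than in the other cultures. One probe gave 100467 a.u. in OM, 95901 in MB and 139955 in NM, and the other 649, 731 and 1035. The 2 monolayers differed by 1.59-fold by the bright probe (NM over OM 0.67) and by 1.82-fold by the dim one (0.86). MB lay below NM by both probes (-0.70 and -0.66). Against OM the probes gave -0.03 and 0.20, and the sign of the first depended on the setting (-0.31 to 0.12).

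ADM encodes adrenomedullin, a secreted vasodilator peptide, and is the member whose probe (chromosome 11, 10285356 to 10285415, plus strand) was printed in 10 spots. These gave 749 ± 25.7 a.u. in OM, 593 ± 23.5 in MB and 611 ± 35.6 in NM (SD over 10 spots). OM was the brightest. After scaling MB was 1.23-fold lower than OM (log2 ratio -0.30), and NM was 1.07-fold lower (-0.10), a ratio whose sign changed in 1 of 11 other settings. RAMP1, part of receptors for peptides of this family, gave 68227 a.u. in OM, 106392 in MB and 17923 in NM, which is 5.33-fold higher in MB than in NM. CALCRL, the receptor subunit it pairs with, was well above background on MB alone, at 31.2 a.u. Of the other RAMP genes listed, RAMP2 was also well above background on MB alone, at 28.2 a.u., and RAMP3 was so on no array.

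P4HA1 is the catalytic subunit of the prolyl hydroxylase that stabilizes collagen. Its probe (chromosome 10, 74440781 to 74444026, bridging a span of 3246 bases) gave 1419 a.u. in OM, 1654 in MB and 1965 in NM. The signal was highest in NM, with a log2 ratio of 0.66 over OM, and MB stood between, at -0.40 relative to NM and 0.25 relative to OM, the last with a change of sign in 1 of 11 other settings. The spots next to it had a median ratio of 0.27 in MB over OM, as large as that of P4HA1, and of 0.46 in MB over NM and -0.21 in NM over OM. P4HB, the beta subunit of the same enzyme, gave 125710, 121800 and 144529 a.u., with ratios of -0.01 for MB over OM and 0.39 for NM over OM.

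**Figure D3:**
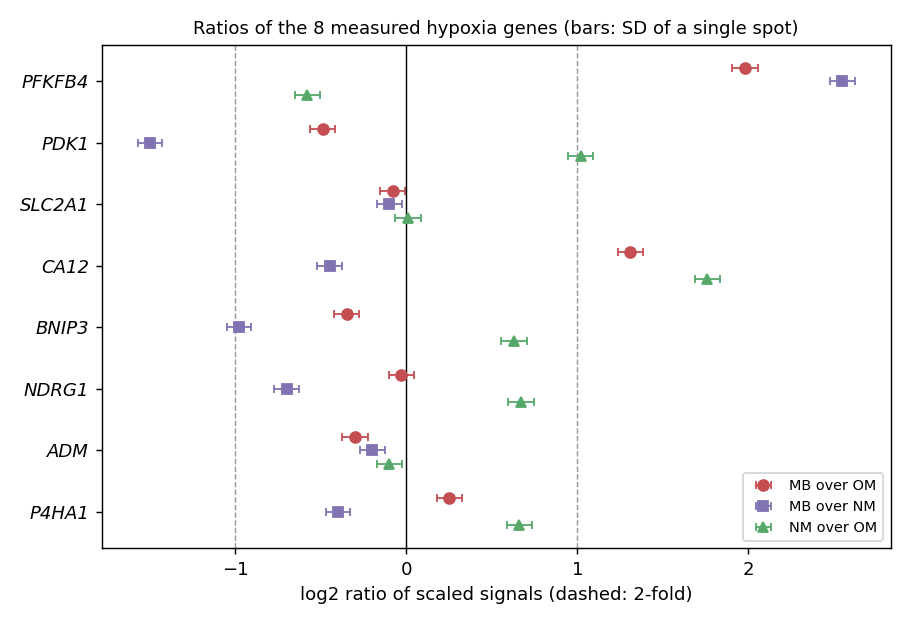
Log2 ratios of scaled signals for the 8 measured hypoxia genes in MB over OM, MB over NM and NM over OM. Bars are the SD of a single-spot ratio (0.074, 0.072 and 0.074) and dashed lines mark 2-fold. In MB over OM CA12 and PFKFB4 lie past 2-fold, while in NM over OM CA12 and PDK1 do and BNIP3, NDRG1 and P4HA1 lie between 0.63 and 0.67.

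Over the 8 measured genes, MB did not stand apart from OM in 1 direction. CA12 and PFKFB4 were more than 2-fold higher in MB, 0 were 2-fold lower, and 0 passed 5-fold, the limit the study used. These counts use 1 probe a gene, and the dim CA12 probe at 7.38-fold over OM is not in them. Of all 12781 genes compared, 6.72% were 2-fold higher in MB and 3.83% lower, with 1.1% and 0.704% at 5-fold. The members' median log2 ratio was -0.06, beside 0.14 for all genes. Between MB and NM, PFKFB4 was the single gene higher in MB, past 2-fold and 5-fold, and the other 7 had negative ratios, of which PDK1 passed 2-fold. The background here was 11.7% higher and 9.45% lower at 2-fold, and 1.73% and 1.62% at 5-fold, over 12807 genes. The median of the members was -0.43, against 0.05 for all genes, and it was negative under all other scalings tried.

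For NM over OM, the pair of monolayers in standard medium, CA12 and PDK1 were past 2-fold higher and 0 genes lower, with a background of 4.57% and 3.55% over 12662 genes. None of the 8 passed 5-fold, which 0.711% and 0.253% of all genes did. The median was 0.64, against 0.11 for all genes, and was positive under all other scalings tried. CA12, PDK1, NDRG1, P4HA1 and BNIP3 had ratios from 0.63 to 1.76, with 12.6% or fewer of all genes at or above each. SLC2A1, ADM and PFKFB4 did not share this, at 0.01, -0.10 and -0.58. The comparisons share arrays, so the low values of MB over NM and the high values of NM over OM both draw on the NM array and are not separate evidence.

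Genes that set HIF activity were all above background by the probe that represents each, and were counted, 16 of 16. In MB over OM 0 passed 2-fold in either direction by these probes. Their median was 0.03, a value that turned negative under other scalings (down to -0.24). The other CREBBP probes gave 0.83 and 1.84 in this comparison, the last past 2-fold, beside 0.72 for the probe counted. HIF1A gave 11015 a.u. in OM, 10394 in MB and 13263 in NM. EPAS1, which encodes HIF-2 alpha, gave 8242 a.u. in OM, 5135 in MB and 16930 in NM, and was the single gene of this list past 2-fold in NM over OM (log2 ratio 1.23) and the 1 past 2-fold lower in MB than in NM (-1.88). Its other probe gave 1.06 and -1.04, but 0.03 in place of -0.65 for MB over OM. The EPAS1 order, lowest or level in MB and highest in NM, resembles that of PDK1 and BNIP3. ARNT gave 923, 1578 and 1022 a.u., and was 0.81 higher in MB than in OM on the log2 scale. The coactivators EP300 (204 a.u. in OM, 354 in MB and 98.3 in NM) and CREBBP (1527, 2462 and 989) were the genes 2-fold higher in MB than in NM. The hydroxylases differed less, with EGLN1 at 9324, 7068 and 10172 a.u. and EGLN2 at 4932, 6053 and 4324. VHL is counted by a probe of 276946, 273190 and 159866 a.u., bright for this gene, with ratios of 0.01 (MB over OM), 0.62 (MB over NM) and -0.60 (NM over OM). Its other probe gave 0.16, 0.44 and -0.28, so neither passed 2-fold, and whether the bright signal is that of VHL was not tested. The VHL ligase partners TCEB1, TCEB2, CUL2 and RBX1 had ratios from -0.45 to 0.11 for MB over OM. HIF1AN, which hydroxylates the HIF transactivation domain, gave 899, 1172 and 696 a.u., and CITED2, which competes with HIF for its coactivators, 491, 349 and 302. ARNT2 gave 4463, 6711 and 3731 a.u., and HIF3A was nearly level at 114, 116 and 112. These HIF3A values come from the brightest of its 4 probes, and the others gave no ratio in any comparison.

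A list of 40 other HIF targets, of which 39 have a probe, split in both directions. The counts of this and the later lists stand beside the shares of all genes past 2-fold. These were 6.72% higher and 3.83% lower in MB over OM, and 11.7% and 9.45% in MB over NM. In NM over OM they were 4.57% and 3.55%. Of 33 measured in MB over OM, 4 were 2-fold higher, ANGPTL4, TMEM45A, PLOD2 and NRN1, and 5 were 2-fold lower, STC2, DDIT4, HMOX1, VLDLR and LOX, with a median of 0.05 (-0.23 with the spike-in scaling). ANGPTL4, a secreted inhibitor of lipoprotein lipase that also answers to PPAR factors, differed most, with 4.93 a.u. in OM, where it was not well above background, 4456 in MB and 40 in NM. MB was at least 218-fold over OM and 100-fold over NM. TMEM45A, a membrane protein of uncertain role, had the pattern of PFKFB4, with 1024 a.u. in OM, 4122 in MB and 565 in NM, and so was 4.12-fold over OM and 6.55-fold over NM. PLOD2, a lysyl hydroxylase for collagen, gave 1195, 2859 and 1032 a.u. and was about as far above each monolayer, 2.45-fold and 2.49-fold. DDIT4, an inhibitor of mTORC1 that also responds to amino acid and other stress, gave 119034 a.u. in OM, 20021 in MB and 165545 in NM, 5.81-fold lower in MB than in OM. STC2, a secreted glycoprotein that is likewise induced by stress of the endoplasmic reticulum, gave 4643, 351 and 7424 a.u. and was 12.9-fold lower. Its other probe gave -3.71 beside -3.69. VLDLR, a lipoprotein receptor, gave 657, 190 and 1414 a.u., and HMOX1, which breaks down heme and responds to oxidants, 3648, 959 and 2980.

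Against NM, those 2-fold higher in MB included ANGPTL4, TMEM45A and PLOD2, and 10 of 33 were 2-fold lower, with a median of -0.27. Of 32 measured in NM over OM, 6 were 2-fold higher, ANKRD37, BNIP3L, FAM162A, IGFBP3, RORA and VLDLR, and FLT1 was lower, with a median of 0.34 that stayed positive under the other scalings (0.15 to 0.46). The next 3 genes were picked after their values were seen, for being past 2-fold in NM over OM. BNIP3L, its paralog in mitophagy, gave 4382 a.u. in OM, 4592 in MB and 10575 in NM (NM over OM 1.46, other probe 0.78). FAM162A, a mitochondrial protein, gave 14396, 13440 and 28124 a.u. (1.16), and ANKRD37 gave 1252, 1234 and 2384 (1.12). These genes were level between MB and OM, with ratios of 0.10, -0.07 and 0.01. By the probe that represents each, the BNIP3 partners BCL2, BCL2L1 and MAP1LC3B did not pass 2-fold, with NM over OM at 0.34, 0.25 and 0.50. The other BCL2 probe gave 1.00, at the 2-fold line, and the other MAP1LC3B probes gave 0.78 and 0.80. VEGFA, the vascular growth factor, was also highest in NM, at 1808, 2496 and 3005 a.u., and all 4 of its probes gave 0.82 to 0.92 for NM over OM.

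Genes of glycolysis that HIF induces showed small shifts. In MB over OM 0 of 16 passed 2-fold by the probe that represents each, with a median of -0.03. The other HK2 probe did pass, at 1.08 beside 0.52, and the other PFKFB3 probes gave 1.00, 0.22 and 0.83 beside 0.97. In NM over OM 16 of 17 had a positive ratio (11 to 16 over the other scalings), 13 of 17 lay above the median of all genes, 0.11, and the list's median was 0.37. ENO2, SLC2A3 and ALDOC passed 2-fold higher and PFKFB3 lower. SLC2A3 and ALDOC were dim, at 235 a.u. or less, and the SLC2A3 probe may share signal with the near-identical SLC2A14. The other SLC2A3 probe gave 0.19 beside 1.01, and by a mean over probes 2 genes of the list were 2-fold higher. In MB over NM, of 17, PFKFB3 was 2-fold higher, ENO2 and PFKP were lower, and the median was -0.35, negative under the other scalings too (-0.57 to -0.06). ENO2, the neuronal enolase, gave 2342 a.u. in OM, 1375 in MB and 5494 in NM, with MB 4.45-fold below NM. PFKFB3, the relative of PFKFB4 with the strongest kinase activity, ran against the list, with 10238 a.u. in OM, 19587 in MB and 3791 in NM. Its MB signal was 4.64-fold that in NM (log2 ratio 2.21), its NM signal was 2.37-fold below OM (-1.24), and its other 3 probes had the same signs. PFKFB3 and PFKFB4 thus shared 1 order, highest in MB and lowest in NM. PFKFB2 was dim and nearly level by its brightest probe (129, 145 and 122 a.u.), and PFKFB1 was not well above background. The other PFKFB2 probe gave 0.58 for MB over OM, 0.12 for MB over NM and 0.45 for NM over OM.

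**Figure D4:**
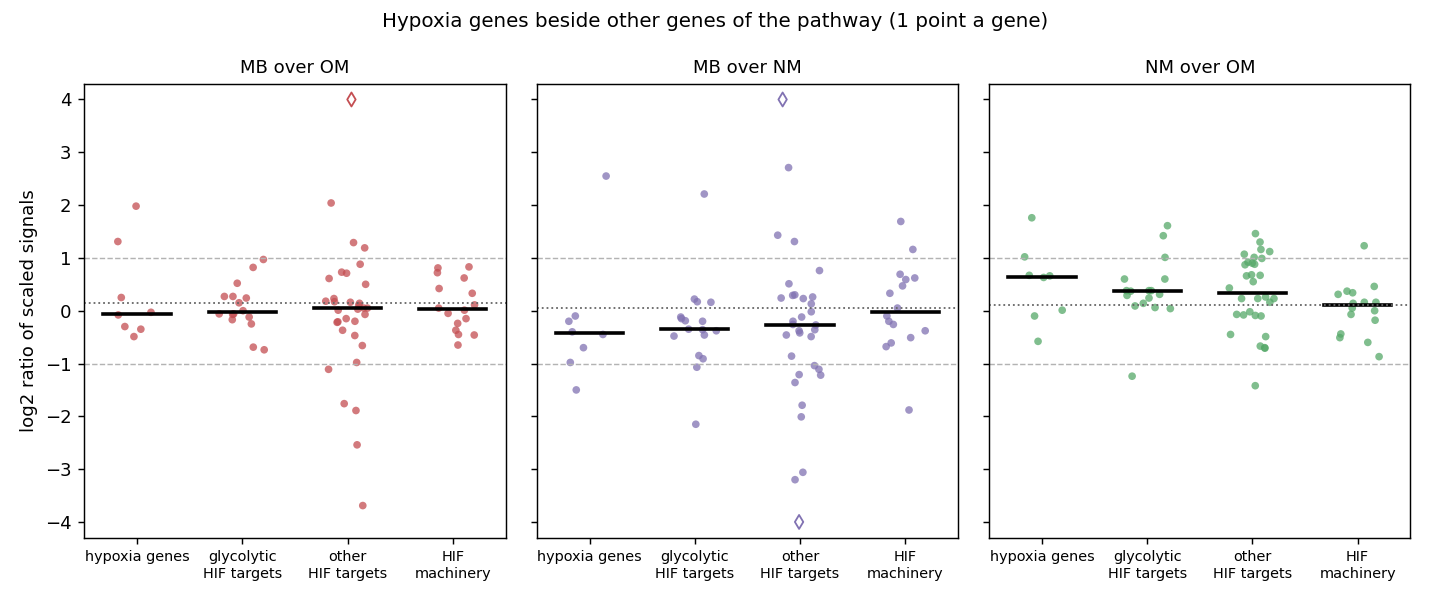
Log2 ratios of scaled signals, 1 point a gene, for the hypoxia genes, glycolytic HIF targets, other HIF targets and HIF machinery in the 3 comparisons. Black bars are list medians, the dotted line is the median of all genes, dashed lines mark 2-fold, and open diamonds lie beyond the axis at 4 or -4. In NM over OM the medians of the first 3 lists are 0.64, 0.37 and 0.34, beside 0.11 for all genes, whereas in MB over OM they are -0.06, -0.03 and 0.05, beside 0.14, and those of the glycolytic and other targets change sign with the scaling.

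Paralogs and partners of the members were listed to see whether a family moved together. Of 18 paralogs measured in MB over OM, PDK4 and SLC2A13 were 2-fold higher and CA2 and CA8 lower, and the median was 0.26. Of all genes, 6.72% were 2-fold higher and 3.83% lower, with a median of 0.14. SLC2A13 passed by its brightest probe (log2 ratio 1.06), while another gave 0.38. PDK4, the kinase of the PDK1 family that responds to fasting and fatty acids, was dim, with 87 a.u. in OM, 221 in MB and 89.5 in NM, and was highest in MB where PDK1 was lowest. The other PDK4 probe gave no ratio. PDK2 (698, 846 and 754 a.u.) and PDK3 (561, 433 and 706) differed by less than 2-fold. In MB over NM, of 16 paralogs, PDK4 was again higher and CA8 lower, and in NM over OM, of 17, SLC2A14 was higher and CA2 and CA5A lower. Of 13 partners measured, PDP1, listed on the array as PPM2C, was the 1 past 2-fold in MB over OM. This phosphatase reverses the action of PDK1 on pyruvate dehydrogenase, and it gave 2970 a.u. in OM, 940 in MB and 2151 in NM, 3.09-fold lower in MB than in OM. PDHA1, the subunit that both act on, gave 21104, 17011 and 19859 a.u. In MB over NM, RAMP1 and PDP2 were past 2-fold higher and PDP1 lower, and in NM over OM, of 12 partners, RAMP1 was lower.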

How the data were processed

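Total RNA of OM, MB and NM was amplified, labeled with Cy3 and hybridized to Agilent 4 × 44K arrays, 1 per population on 1 slide. For each array the authors deposited the spot intensity from Feature Extraction (9.5 in the submitters' processing notes, 9.5.3.1 in the file headers), from which a fitted spatial background surface had been subtracted, with no scaling between arrays. The deposited value table holds the same intensity values (130128 of 130128 within 0.1%).

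Control and outlier spots (77 to 81 an array, 0 of members) were left out, repeat spots were averaged per probe, and signals were scaled to the average of HSP90AA1, ACTB and GAPDH on their array. HSP90AA1 was taken for HSP90 because its probe is printed in 10 spots. The probe with the highest mean signal represents a gene. A gene passed at 2-fold or 5-fold where its brighter signal exceeded 100 a.u. unscaled. Where the dimmer signal was not well above background, a bound was given. Well above background were 28746, 29125 and 26516 probes on OM, MB and NM, and the few arrays limit the precision. Named genes are the 10 members, the HIF machinery, and of each other list up to 8 genes past 2-fold in MB over OM or NM with the largest ratio to OM. LOX, ANKRD37, BNIP3L, FAM162A, VEGFA, PFKFB1, PFKFB2, SLC2A14, CA5A, ALDOC, SLC2A3, HK2, IGFBP3, RORA, FLT1, P4HB, PDHA1, PDK2, PDK3, BCL2, BCL2L1, MAP1LC3B, CALCRL, RAMP2 and RAMP3 were named after their values were seen. A gene of the other HIF targets is not reported here. Members and lists were chosen with earlier results of these data known. Gene names and positions (hg17) are those on the array, except that current symbols replace older ones (FAM162A for C3orf28, PDP1 for PPM2C), and promoters were matched by symbol. Python 3.11.15, numpy 2.4.6, pandas 2.3.3, matplotlib 3.10.9, and R 4.3.3 with limma 3.58.1 for normexp (offset 50) were used.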

Additional observations from a re-analysis of the deposited data

How the results depend on the processing

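Of 585 summary values recomputed under other settings, 525 stayed within the single-spot SD (medians) or within 1.5 times the count, and 60 did not. Direction was not part of this rule. The 525 include counts that stayed at 0 and values from the deposited value table, which repeats the main result. Of 264 ratios of single members, 122 moved by more than the single-spot SD, and 0 of those past 2-fold changed sign. The median of all genes moved with the scaling, in MB over OM from 0.14 to -0.04 with the 75th percentile and -0.14 with 8 spike-in probes, in MB over NM from 0.05 to -0.16 without GAPDH and 0.21 without scaling, and in NM over OM from 0.11 to 0.22 and -0.08. Relative to that median the members' own median was -0.20, -0.48 and 0.53 in the 3 comparisons, and -0.09, -0.39 and 0.38 after quantile normalization. Scaled to the 75th percentile, their median was -0.24 in MB over OM, -0.51 in MB over NM and 0.55 in NM over OM. Without GAPDH it was -0.16, -0.64 and 0.76, and with spike-in scaling -0.34, -0.56 and 0.50. In MB over NM it was -0.52 with the geometric mean of the housekeeping genes, -0.27 without scaling and -0.30 as a mean over probes, and in NM over OM 0.41 after quantile normalization and 0.45 without scaling. Hypoxia genes 2-fold lower in MB than in NM numbered 2 with the 75th percentile, without GAPDH, with the geometric mean and with spike-ins, as BNIP3 joined PDK1. Those 2-fold higher in NM than in OM numbered 1 with the 75th percentile, spike-ins, quantile normalization, normexp, no scaling and no background subtraction, as PDK1 fell short. Of other HIF targets, 2 were 2-fold higher in NM than in OM without scaling and 3 with spike-ins. Of HIF machinery, 1 gene was 2-fold higher in MB than in NM without GAPDH, 1 was 2-fold lower in NM than in OM without scaling and with spike-ins, and 1 was 2-fold higher in MB than in OM as a mean over probes. Glycolytic targets 2-fold lower in MB than in NM numbered 4 without GAPDH and 1 without scaling, 1 was 2-fold lower in MB than in OM with spike-ins, and 1 was 2-fold higher in NM than in OM with normexp. Paralogs 2-fold higher in MB than in OM numbered 1 with the 75th percentile, without GAPDH, with quantile normalization, with spike-ins and as a mean over probes, and 0 with normexp and no background subtraction, which left 1 lower. Against NM, paralogs higher in MB numbered 0 without GAPDH, with quantile normalization, normexp and no background subtraction, and 2 without scaling, and those lower numbered 2 without GAPDH, with quantile normalization, spike-ins and no minimum signal. In NM over OM, paralogs higher numbered 3 without GAPDH and 2 with quantile normalization and no minimum signal, and those lower 0 with normexp and no background subtraction. Partners higher in MB than in NM numbered 1 with normexp, those lower 2 with no minimum signal, and 1 was higher in NM than in OM with no minimum signal. The causes were not tested. No paired analysis was possible because each population is 1 array, and no replicate could be left out.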
